A study of Homo sapiens with 2 samples.

Results

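The miR-26 family was followed in small RNAs recovered from an affinity resin. Its members were the 4 mature miRNA names hsa-miR-26a-5p, hsa-miR-26b-5p, hsa-miR-26b-3p and hsa-miR-26a-2-3p, taken by name from the 2588 names in the deposited count files. Both libraries came from lysate of the parental MDA231 line, cultured breast cancer cells of triple-negative type (MDA-MB-231). The bait library came from amylose resin that carried the long non-coding RNA MACC1-AS1, transcribed in vitro and joined to MS2 hairpins, held by a fusion of maltose-binding protein with MS2 coat protein. The no-bait library had None as its RNA substrate, so the control had no RNA of other sequence and no free-standing MS2 hairpins, and binding to MACC1-AS1, to the hairpins or to RNA in general cannot be told apart. Each group was 1 library with no replicate, so no difference below has a replicate check, no p-value was computed, and every interval covers counting error only. The comparison asks which miRNAs associate with the tagged RNA.

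miRNAs guide Argonaute proteins to messages that pair with the seed, the bases 2 to 8 from the 5′ end. The miR-26 guides are the 5p arms of 3 hairpins that lie in genes for small phosphatases of the RNA polymerase II C-terminal domain. In many tissues they act against proliferation, and a message known to be repressed by them is EZH2, the methyltransferase of the Polycomb repressive complex. The 3p arms are passenger strands that are mostly degraded when the guide is loaded.

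The mature sequences are shown because the members divide by seed, which is in capitals. They are RefSeq sequences on GRCh38.p14, matched by miRNA name, and all 4 members matched. miR-26a-5p and miR-26b-5p share 1 seed with miR-1297 and miR-4465, while the 3p arms have other seeds. miR-26a-1-3p and miR-26a-2-3p have the same seed, and that of miR-26b-3p differs from it.
hsa-miR-26a-5p: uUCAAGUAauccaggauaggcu
hsa-miR-26b-5p: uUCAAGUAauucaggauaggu
hsa-miR-1297: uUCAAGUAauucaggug
hsa-miR-4465: cUCAAGUAgucugaccagggga
hsa-miR-26b-3p: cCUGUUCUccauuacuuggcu
hsa-miR-26a-2-3p: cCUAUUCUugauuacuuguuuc
hsa-miR-26a-1-3p: cCUAUUCUugguuacuugcacg

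Counted from the 5′ end, the first 10 bases of miR-26a-5p and miR-26b-5p are the same. Over their shared length they differ at C11U and C21U, the miR-26a-5p base being written first, and miR-26a-5p is 1 base longer at 22 against 21. The sources used here do not say how a read that matches both names within a mismatch was counted, so the division of reads between these names is uncertain. miR-1297 shares its first 15 bases with miR-26b-5p and then differs at A16U and U17G, the miR-26b-5p base being written first.

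The hairpins are shown with their annotated arms in capitals, since the counts of the arms are compared below.
MIR26A1: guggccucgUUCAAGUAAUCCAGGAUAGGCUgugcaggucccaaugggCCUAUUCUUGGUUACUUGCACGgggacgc
MIR26A2: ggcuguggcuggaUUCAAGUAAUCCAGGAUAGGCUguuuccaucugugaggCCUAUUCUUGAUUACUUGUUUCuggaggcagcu
MIR26B: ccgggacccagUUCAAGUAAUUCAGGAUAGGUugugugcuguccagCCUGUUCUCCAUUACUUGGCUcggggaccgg
On GRCh38 with GENCODE version 29, MIR26A1 lies at chr3:37969404-37969480 on the plus strand in CTDSPL. MIR26A2 lies at chr12:57824609-57824692 on the minus strand in CTDSP2, and MIR26B at chr2:218402646-218402722 on the plus strand in CTDSP1. Each hairpin was intronic in every protein-coding transcript of its host that spans it, which were 3 for CTDSPL, 5 for CTDSP2 and 4 for CTDSP1. MIR26A1 and MIR26A2 give the same 5p sequence, so a count of miR-26a-5p cannot be assigned to either locus, and only their 3p names are distinct.

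The bait library held 1047269 miRNA counts and the no-bait library 269716, a 3.88-fold difference. miRNAs typical of mesenchymal-like basal breast lines (miR-100-5p, miR-221-3p, miR-222-3p, miR-21-5p and miR-125b-5p) were each between 5596 and 296361 RPM (reads scaled to a library total of 1000000 miRNA counts) with bait and between 4405 and 452802 RPM without. The 6 epithelial miRNAs of the miR-200 family and miR-205-5p summed to 181 RPM with bait and 111 RPM without, with miR-141-3p and miR-205-5p at 0 counts in both. The 6 blood cell miRNAs summed to 432 RPM with bait and 864 RPM without, with miR-223-3p and miR-144-3p at 0 counts in both. Most of both sums was miR-486-5p, at 369 RPM with bait and 793 RPM without. miR-451a was also lower with bait, at 3.82 against 37.1 RPM. miR-142-3p and miR-142-5p went the other way, at 16.2 against 0 RPM and 43.0 against 33.4 RPM.

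Both guides were higher with bait. miR-26a-5p had 41021 counts with bait, which is 39170 RPM (exact Poisson 95% interval 38791 to 39550), and 2894 counts without, which is 10730 RPM (10342 to 11128). It was the sixth most abundant name with bait, at 3.92% of the library (Clopper-Pearson 95% interval 3.88% to 3.95%), and rank 12 without, at 1.07% (1.03% to 1.11%). The ratio of bait to no bait was 3.65, with an exact conditional binomial 95% interval of 3.52 to 3.79. The intervals of the levels in the 2 libraries did not overlap.

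miR-26b-5p, the guide from CTDSP1, was far rarer. It had 479 counts with bait, or 457 RPM (417 to 500.2), and 37 counts without, or 137 RPM (96.6 to 189). Its rank was 69 with bait and 107 without. The ratio was 3.33 (2.38 to 4.79), and here too the intervals of the levels did not overlap. The 37 counts of the no-bait library set the width of this interval, which holds the ratio of miR-26a-5p.

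A miRNA was tested at 30 or more counts over both libraries. It was called where its interval excluded 1 and its ratio was 2 or more (higher) or 0.5 or less (lower). Of the 4 members, 2 were tested and both were called higher, against 39.4% of all 231 tested miRNAs called higher and 26.8% called lower. The median log2 ratio was 0.55 over all tested miRNAs and was 1.87 for miR-26a-5p and 1.74 for miR-26b-5p. The median over all miRNAs depended on the count minimum, at 0.31 with 10 counts and -0.47 with no count filter. With no count filter, setting a 0 without bait to 3 counts gave ratios below 1 to names with few counts with bait. miR-429, at 8 counts with bait and 0 without, had a log2 ratio of -0.54. The median at that setting is therefore no measure of the direction of rare miRNAs. A larger ratio than that of miR-26a-5p was seen for at least 57 of the 231 tested miRNAs, and a larger one than that of miR-26b-5p for at least 67. These are minimum numbers, because the ratio of a miRNA with 0 counts without bait is a lower bound set at 3 counts. Both guides stood above the median under each of these count minimums.

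**Figure D1:**
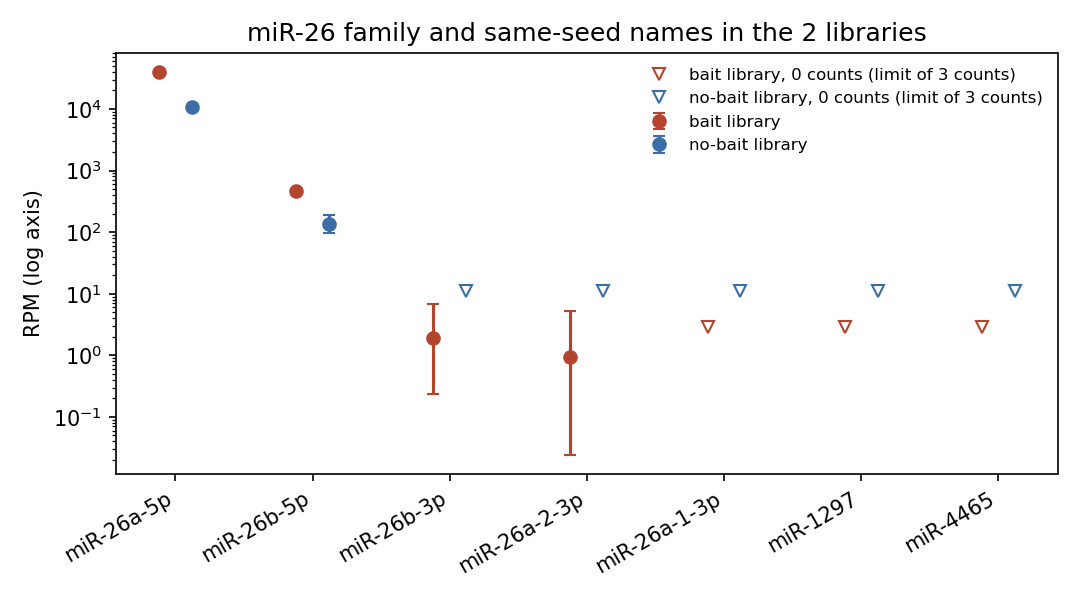
RPM on a log axis for the 4 members, miR-26a-1-3p and the same-seed names miR-1297 and miR-4465, in the bait library (red) and the no-bait library (blue); bars are exact Poisson 95% intervals and open triangles mark names with 0 counts, drawn at the limit of 3 counts. miR-26a-5p and miR-26b-5p lie higher with bait, at 39170 against 10730 RPM and 457 against 137 RPM, while miR-26b-3p and miR-26a-2-3p lie at 1.91 and 0.955 RPM with bait and have 0 counts without.

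**Figure D2:**
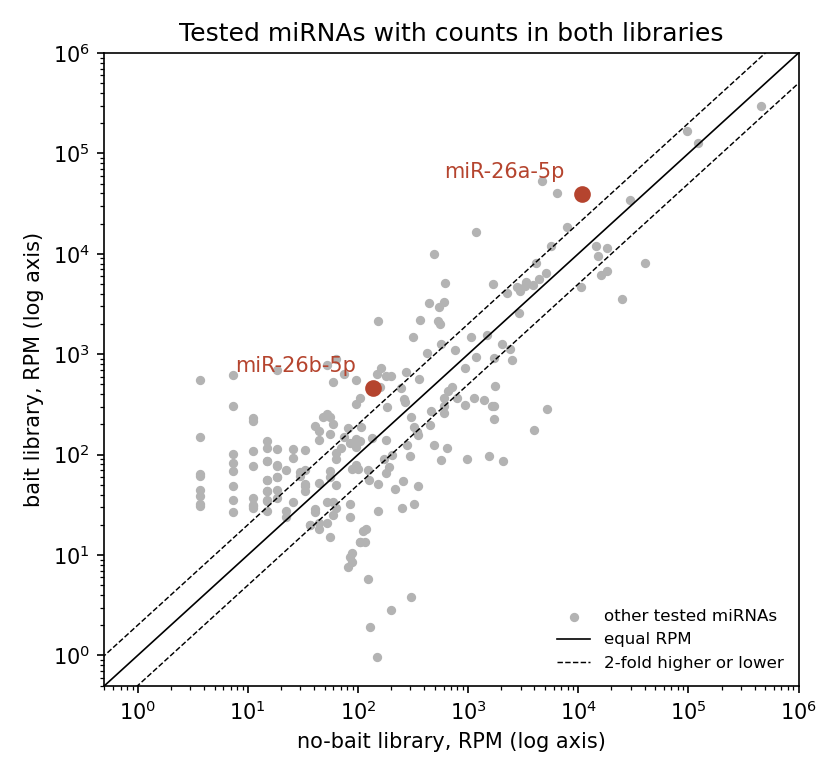
RPM in the bait library against RPM in the no-bait library, both on log axes, for tested miRNAs with counts in both; each point is 1 miRNA, the solid line marks equal RPM and the dashed lines 2-fold differences. Both miR-26 guides (red) lie above the upper dashed line, at ratios of 3.65 and 3.33.

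Both calls held under each scaling of the libraries. With edgeR TMM factors the ratio of miR-26a-5p was 4.06 and that of miR-26b-5p 3.71. DESeq2 size factors gave 4.89 and 4.47. Leaving the 5 most abundant miRNAs out of the totals gave 3.34 and 3.05. These settings moved the median log2 ratio of all tested miRNAs by 0.15, 0.42 and -0.13, and DESeq2 size factors raised the share of higher among all calls from 59.5% to 72.2%. The ratio between the guides is not touched by the scaling. A ratio compares shares of a library, and no scale for the total amount recovered was given.

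**Figure D3:**
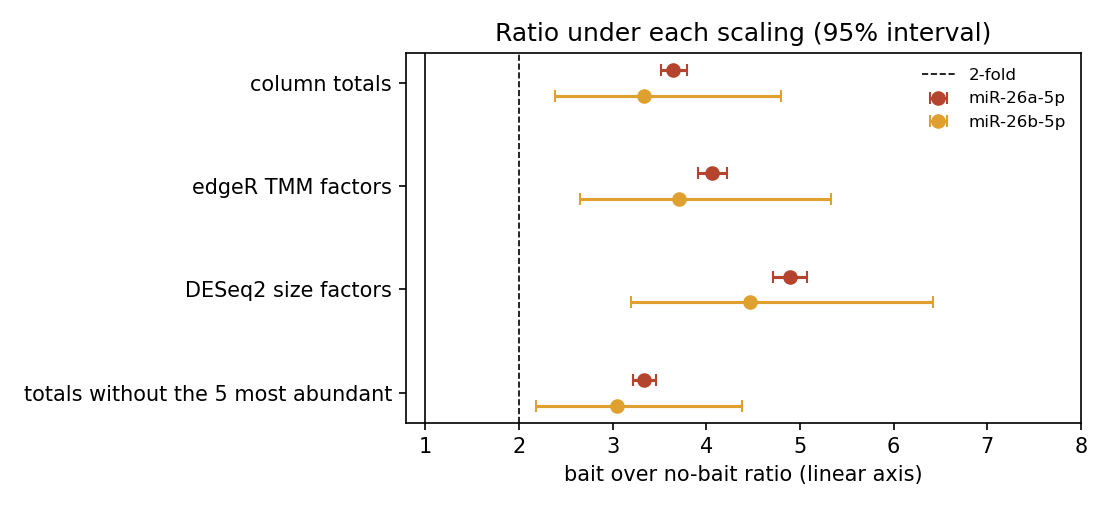
Bait over no-bait ratio on a linear axis for miR-26a-5p (red) and miR-26b-5p (yellow) with library totals, edgeR TMM factors, DESeq2 size factors and totals that omit the 5 most abundant names; bars are exact 95% counting intervals, the solid line marks 1 and the dashed line 2. Every interval lies above 2, with the lowest bound at 2.18 for miR-26b-5p.

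The makeup of the family's guide counts was alike in the libraries within counting error. Together the 2 guides took 3.96% of counts with bait and 1.09% without. miR-26b-5p made up 1.15% of the 41500 guide counts with bait (Clopper-Pearson 1.05% to 1.26%) and 1.26% of the 2931 without (0.890% to 1.74%). miR-26a-5p thus outnumbered miR-26b-5p 85.6 to 1 with bait and 78.2 to 1 without. The odds of a guide count being miR-26b-5p were 0.913 times as high with bait as without, with an exact conditional 95% interval of 0.652 to 1.32, so a difference within these bounds was not detectable at this depth. The names differ at only 2 bases over their shared length, and the part of miR-26a-5p reads among those counted as miR-26b-5p was not tested.

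Among the pairs of names with 1 shared seed that could be formed here, most others were further apart. There were 12 seeds with exactly 2 tested names of different sequence and counts in both libraries, out of 203 tested names with a RefSeq sequence. The ratios of the miR-26 guides were 1.09-fold apart, the second smallest gap of the 12, next to miR-146a-5p and miR-146b-5p with 1.09-fold. The median gap was 1.74-fold, and the widest was 7.91-fold, between miR-125a-5p and miR-125b-5p. The gap of the miR-26 guides has the counting error of 37 counts behind it, and these ranks are a description. Tested names without a matched sequence could not be paired, among them miR-10b-5p, miR-151a-5p and miR-151b. The ratio of miR-10b-5p was 0.386 beside 0.383 for miR-10a-5p, so a close gap is not particular to the miR-26 guides. The rank holds only among these 12 pairs. Both names were called higher in 5 of the 12 pairs, the miR-26 guides among them. Taken singly, 39.4% of all 231 tested miRNAs were called higher.

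The passenger strands were close to absent. miR-26b-3p had 2 counts with bait, or 1.91 RPM (0.231 to 6.90), and 0 without. miR-26a-2-3p had 1 count with bait, or 0.955 RPM (0.0242 to 5.32), and 0 without. The limit for 0 counts, set at 3 counts, is 11.1 RPM in the no-bait library and 2.86 RPM in the bait library, and the upper bounds of the exact Poisson interval are 13.7 RPM and 3.52 RPM. The share of miR-26b-3p with bait would come to 0.515 counts at the depth of the no-bait library, and that of miR-26a-2-3p to 0.258. A difference between the libraries was therefore not detectable for either 3p name at this depth, and no fold is given.

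miR-26a-1-3p, the passenger of the CTDSPL hairpin, had 0 counts in both libraries. The single 3p count of a miR-26a hairpin was from MIR26A2 in CTDSP2, which is too few to compare the 2 loci. miR-1297 and miR-4465, which carry the same seed from other loci, also had 0 counts in both, with the same limits. All counts of the seed UCAAGUA among these 4 names were thus from the miR-26 guides.

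Within the hairpins the 5p arm held nearly every count. In the bait library the 3p arm of miR-26b had 0.416% of 481 counts (Clopper-Pearson 0.0504% to 1.49%). The 3p names of the miR-26a hairpins together had 0.00244% of 41022 counts (6.17e-05% to 0.0136%). Without bait the 3p share was 0 of 37 counts for miR-26b, with a Clopper-Pearson upper bound of 9.49%, and 0 of 2894 for miR-26a, with one of 0.127%.

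Over the 132 hairpins with both arms named and at least 30 counts with bait, the rarer arm held a median of 0.891% of counts. The rarer arm had a smaller share than in miR-26b in 52 of them, of which 33 had 0 counts on that arm, and in a hairpin near 30 counts a 0 cannot be told from a share like that of miR-26b. At 1000 counts or more, 36 hairpins remained with a median of 0.443%, and 6 of them had a smaller share than the miR-26a hairpins, 5 of these with 0 counts. At 10000 counts or more the median of 8 hairpins was 0.0496%, and 2 had a smaller share than miR-26a, 1 of these with 0 counts. The share of the miR-26a hairpins was thus below the median at each of these minimums.

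The miRNAs nearest to miR-26a-5p in level over the 2 libraries, by Euclidean distance in log2 RPM, were miR-30a-5p (distance 0.75), miR-30d-5p (1.19) and miR-125b-5p (1.28). Nearest to miR-26b-5p were miR-16-2-3p (0.22), miR-425-5p (0.47) and miR-340-5p (0.52). With only 2 libraries this likeness rests on 2 values for each miRNA. Their ratios ran from 2.34 for miR-30d-5p to 11.4 for miR-125b-5p, and nearness in both levels largely fixes the ratio, so nothing is read from their direction.

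miRNAs of like abundance did not all behave as the guides did. Among the 3 tested miRNAs next above and the 3 next below miR-26a-5p in the bait library, 4 were higher and 0 lower, with ratios from 1.05 for miR-92a-3p to 13.7 for miR-30c-5p. Chosen by level in the no-bait library, 2 of 6 were higher and 2 lower, from 0.383 for miR-10a-5p to 6.27 for miR-30a-5p. For miR-26b-5p, 1 of 6 was higher and 2 lower by level with bait, and 1 of 6 was higher and 4 lower by level without. Over all 231 tested miRNAs, 39.4% were higher and 26.8% lower. Neighbours chosen in the bait library tend to be high there and those chosen in the no-bait library tend to be high in that one, so the sets are given side by side. Among the 18 tested miRNAs with at least 10000 counts over both libraries, 4 had a larger ratio than miR-26a-5p, namely miR-23a-3p, miR-30c-5p, miR-125b-5p and miR-30a-5p.

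The miR-30 and let-7 guides serve as comparisons, since they are abundant and have several members of 1 seed. All 5 miR-30 guides, which act in epithelial differentiation, were higher, with ratios from 2.34 to 14.1. Of these, 3 had an interval wholly above that of miR-26a-5p and 1, miR-30d-5p, had one wholly below. Of the 9 let-7 guides, known as brakes on growth genes, 2 were higher and 2 lower, with ratios from 0.181 to 3.99. For all 231 tested miRNAs the shares called were 39.4% higher and 26.8% lower. The interval of 8 of the 9 lay wholly below that of miR-26a-5p, and let-7b-5p, at 3.99, was the exception. The ratio of the miR-26 guides was thus inside the range of the miR-30 guides and above most let-7 guides.

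Of 6 other miRNAs known to repress EZH2, 4 were tested. Of these 1 was higher and 0 were lower, against 39.4% called higher and 26.8% called lower over all 231 tested miRNAs. The median log2 ratio of the tested members was 0.02 against 0.55 over all tested miRNAs. The ratio of miR-138-5p was 14.2 (8.83 to 24.5), from 938 counts with bait against 17. miR-101-3p, the best known of these EZH2 repressors, had 593 counts with bait and 96 without, and its ratio of 1.59 (1.28 to 1.99) missed the 2-fold rule. The ratios of let-7a-5p and miR-98-5p were 0.618 and 0.644. miR-214-3p had 4 counts with bait and 2 without, and miR-124-3p had 0 in both.

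**Figure D4:**
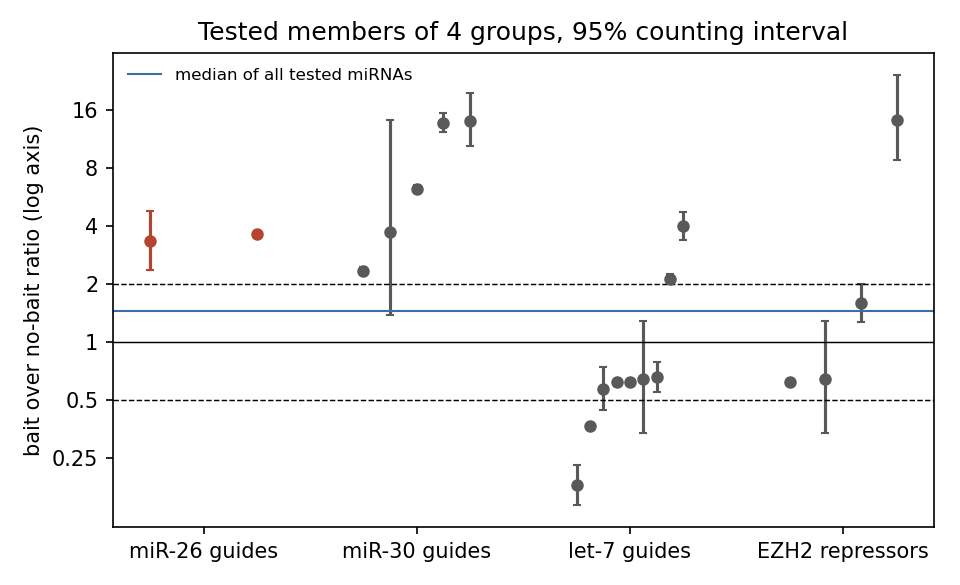
Bait over no-bait ratio on a log axis for the tested members of the miR-26 guides (red), the miR-30 guides, the let-7 guides and other miRNAs known to repress EZH2 (grey), each point 1 miRNA with its exact 95% counting interval; let-7a-5p and miR-98-5p appear in 2 groups. The blue line is the median ratio of 1.46 over all tested miRNAs, the solid line marks 1 and the dashed lines 2 and 0.5, and both miR-26 guides lie above 2.

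The guides also share a low content of G and C and a U as first base. G and C made up 40.9% of miR-26a-5p and 33.3% of miR-26b-5p, which puts both in the lowest of 3 groups of about equal size by this content. In that group of 71 miRNAs (22.7% to 43.5% G and C) the median ratio was 2.42, and 53.5% were called higher. In the middle group of 64 the median was 1.55, and in the highest group of 68 (from 52.4% up) it was 0.787, with 23.5% called higher. Spearman's rho between this content and the log2 ratio was -0.30 across 203 miRNAs and -0.17 across the 49 with at least 1000 counts, as a description of points that share the same 2 libraries.

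A first base U was found in 100 of the 203 miRNAs, whose median ratio was 2.13, with 48.0% called higher. For the 48 with a first base U in the lowest group of G and C content, the median ratio was 3.05. Of the 48, 60.4% were called higher and 12.5% lower. Both miR-26 guides, at 3.65 and 3.33, are among the 48, so this median is not independent of them. Base composition therefore moved with the ratio across miRNAs, and its part in the ratio of the miR-26 guides was not tested.

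**Figure D5:**
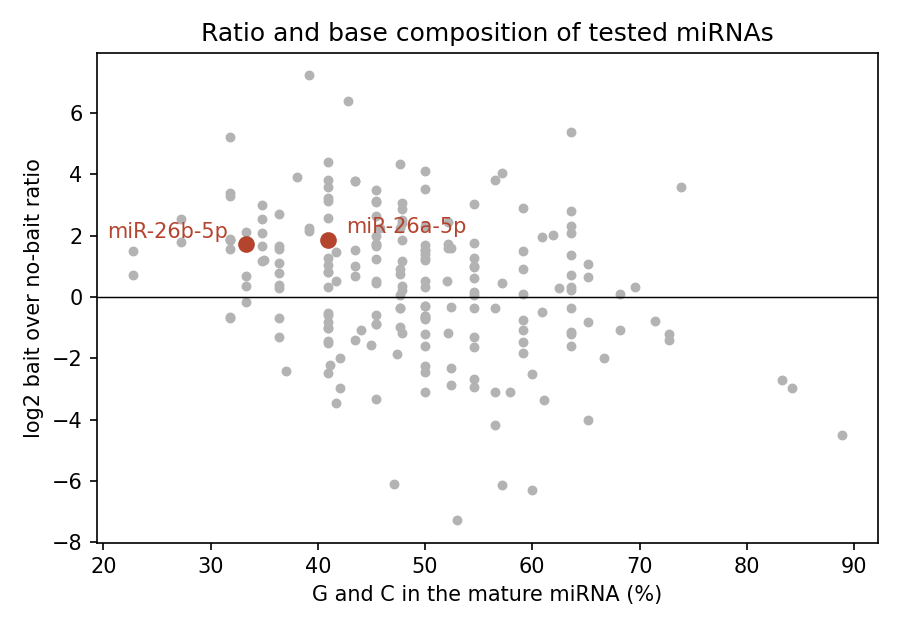
Log2 bait over no-bait ratio against the percentage of G and C in the mature sequence for the 203 tested miRNAs with a RefSeq sequence, each point 1 miRNA; names with 0 counts in 1 library are set at the limit of 3 counts there. The miR-26 guides (red), at 40.9% and 33.3%, lie at log2 ratios of 1.87 and 1.74 on the left of a broad cloud that tends downward to the right.

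The annotated transcript of MACC1-AS1 was searched for letters that pair with the seeds, reading the RNA strand only. It is 639 nt long with 4 exons (ENST00000439285.1, GENCODE version 29). The match to bases 2 to 8 of the guides, TACTTGA, was not found. The match to bases 2 to 7 followed by A, ACTTGAA, was found once, at positions 102 to 108, and it contains the shorter ACTTGA. Of 9088 non-coding transcripts within 10% of this length, 5.95% held ACTTGAA and 15.8% held ACTTGA. The window around this match is shown with the match in capitals.
MACC1-AS1 positions 90 to 119: aatgaaccctgcACTTGAAcaacacttcat

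The window crosses the first splice junction, with its first part at chr7:20142005-20142020 in exon 1 and the rest at chr7:20147427-20147440 in exon 2, on the plus strand of GRCh38. Of the 7 matched bases, 4 lie in exon 1 and 3 in exon 2, so the matched stretch is not contiguous in the genome. Without gaps, 7 bases of miR-26a-5p and 8 of miR-26b-5p pair by Watson-Crick rules at this place, the first 7 in a row from base 1. For the 3p arms, the match to bases 2 to 8 of the seed (AGAACAG for miR-26b-3p and AGAATAG for miR-26a-2-3p) was not found, and 8.11% and 2.70% of the transcripts of like length held them. The match to bases 2 to 7 followed by A of miR-26a-2-3p, GAATAGA, was found once, and 2.94% of those transcripts held it. It contains the shorter GAATAG, held by 8.08%. For miR-26b-3p the match to bases 2 to 7 alone, GAACAG, was found once, and 21.2% of those transcripts held it. Its match followed by A, GAACAGA, was not found. These matches are descriptions of letters in the annotated transcript, and which isoform the bait carried was not analysed here.

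In the authors' deposited table the log2 fold change of miR-26a-5p was 1.87 with a p-value of 0.00288, and that of miR-26b-5p was 1.74 with a p-value of 0.00815. The test behind that deposited table's p-values is not named there, and it can speak only of these libraries, since neither condition was replicated. Of the 2588 names in the authors' deposited table, 3.36% were higher with bait at a p-value under 0.05. Only 715 of those names had a count in either library, and a name without counts could not be called. This share therefore cannot be set beside the 39.4% called higher among the 231 miRNAs tested above. For miR-26b-3p and miR-26a-2-3p the authors' deposited table gives log2 fold changes of 7.58 and 6.57, larger than those of the guides, with p-values of 1. Those values follow from 2 counts and 1 count set against an RPM of 0 that was replaced by 0.01, and they rest on the same counts as the values above.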

How the data were processed

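Small RNAs eluted from the resin were sequenced by the submitters in 1 bait and 1 no-bait library. Per the file headers, the deposited files hold, for each mature miRNA name, a whole-number count and a normalized value, which is an RPM (count over library total, largest deviation 0.00994 RPM). The authors' deposited comparison table adds a log2 fold change and a p-value from an unnamed test. The submitters' processing notes name BWA. The miRNA reference, build, trimming and handling of reads matching several names were not given in the sources used here. Reads without molecular identifiers are not independent molecules.

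Each library's counts were divided by their total, 1047269 with bait and 269716 without. Ratios have exact conditional binomial intervals, levels exact Poisson intervals and shares Clopper-Pearson intervals, all at 95% (scipy 1.17.1). A 0 was set to 3 counts in ratios, with none given where the other library had 3 or fewer. TMM factors came from edgeR 4.0.16 and size factors from DESeq2 1.42.0. Calls and intervals were tested on simulated Poisson counts, the model that the intervals assume. The simulation held no variation between libraries, so it checks the calculation only. Named miRNAs were the members, the other family and same-seed names, the 3 nearest in level, the neighbours in abundance and fixed lists. Members and lists were chosen with earlier results of these data known. miRNAs named among the seed pairs and among those with at least 10000 counts were chosen after their values were seen.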

Additional observations from a re-analysis of the deposited data

How the results depend on the processing

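The miR-26 guides kept their direction and their calls under every scaling and interval rule tried, with 2 members called in each. The count minimums also left 2 members called, but they could not change this. Both guides have more counts than any minimum tried, and the 3p names have too few counts for a ratio. The ratio of miR-26a-5p moved beyond its narrow counting interval, to 4.06 with edgeR TMM factors, 4.89 by DESeq2 size factors and 3.34 when the 5 most abundant names were left out of the totals. That of miR-26b-5p stayed within its interval, between 3.05 and 4.47. Using the deposited RPM changed neither, as it is the same count over the same total. For all miRNAs, the 91 higher and 62 lower calls became 59 and 37 at a minimum of 100 counts, where fewer miRNAs are tested, and 95 and 100 with no count filter, where more are. The median log2 ratio of all miRNAs was 0.31 at a minimum of 10 counts and -0.47 with no count filter, against 0.55. With no count filter it includes names given a ratio below 1 by setting a 0 without bait to 3 counts. The bait library's 3p share of 0.416% for miR-26b was 0.00244% for the miR-26a hairpins. In all, 29 alternative values stayed within the limits and 7 moved. The limits were the main counting interval for ratios and shares and a set fold for numbers of calls. Part of the 29 could not move, namely those from the deposited RPM, from the same-seed names without counts and from members called under other count minimums. The miR-26a 3p share of the bait library, counted as moved, is a different quantity from the miR-26b share. In the no-bait library both 3p shares were 0, and that value is counted among the 29. These totals are therefore no measure of robustness. The no-bait depth limits miR-26b-5p and both 3p names. No paired analysis was possible because each group held 1 library. Without replicates no library could be left out.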
